A study of Mus musculus with 14 samples.

Results

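The genes described here encode the surface receptors by which platelets adhere and become activated. They are the 9 genes *Gp1ba*, *Gp1bb*, *Gp5*, *Gp9*, *Gp6*, *Clec1b*, *Treml1*, *Itga2b* and *Itgb3*, chosen by name among the 49315 genes of the spleen count table. All 9 had a row in the spleen comparison table of 16836 genes. Of these, 7 had a row in the ovary comparison table of 18603 genes, and *Gp9* and *Treml1* were not analysed here in the ovary.

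Poly(A) RNA was sequenced by strand from whole spleen and ovary of neonatal mice that lack ZFP36L2, an RNA-binding protein that destabilizes mRNAs with AU-rich elements, and of wild-type littermates. The spleen series had 4 wild-type mice (2 female, 2 male) and 4 L2-fKO mice (1 female, 3 male), and the ovary series had 3 wild-type and 3 L2-fKO females. L2-fKO mice had both copies of a floxed *Zfp36l2* deleted by a CMV-*Cre* transgene, which acts in the early embryo and thus in every tissue, and the wild-type mice carried the same transgene with intact *Zfp36l2* copies. The age of each animal was not in the labels, the labels call the knockout L2-cKO and the spleen material an organoid, and L2-fKO spleen 3 and L2-fKO ovary 1 came from the same animal.

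Platelets are shed by megakaryocytes, which in the neonatal mouse also develop in the spleen, and their receptors are made mostly while the megakaryocyte matures. The GPIb-IX-V complex holds platelets to von Willebrand factor on a damaged vessel wall, GPVI and CLEC-2 then signal through Syk after binding collagen or podoplanin, and the integrin αIIbβ3 binds fibrinogen and joins platelets to each other. In bulk tissue, fewer cells of a type and less RNA per cell cannot be told apart.

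The spleen libraries held 39138010 to 45167464 counts and the ovary libraries 31052510 to 44270070 reads on the listed genes. *Zfp36l2* itself had 4362 to 7394 normalized counts in the wild-type spleens and 278 to 405 in the L2-fKO spleens, and 4745 to 4906 and 758 to 1011 in the ovaries. Between pairs of spleens of a group the chi-square of the counts, divided by its degrees of freedom, was 7.86 to 236, so none was a repeat of another; L2-fKO spleens 3 and 4 differed most. The oocyte markers summed to 12.9 to 26.4 normalized counts in the wild-type spleens and to 114880 to 116846 in the wild-type ovaries, and the erythroid markers to 319897 to 385499 in the wild-type spleens and 338 to 748 in the wild-type ovaries.

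The GPIb-IX-V complex is considered first. *Gp1ba* (GPIbα, the chain that binds von Willebrand factor) lies on chr11:70639122-70642036 of GRCm38, plus strand. *Gp1bb* (GPIbβ, the chain disulfide-bonded to GPIbα) lies on chr16:18620317-18622403, minus strand. *Gp5* (GPV, a thrombin substrate) lies on chr16:30307685-30310779, minus strand, and *Gp9* (GPIX, needed for surface assembly) on chr6:87778072-87779768, plus strand. Of the exon bases of *Gp1bb*, 91.1% are shared with *Sept5* on the same strand, so that its counts and its level per length are uncertain. *Sept5* had 429 ± 171 (SD, n = 4) normalized counts in the wild-type spleens and 217 ± 76.8 in the L2-fKO spleens and was not called (edgeR adjusted p = 0.0761).

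*Gp1ba* had normalized counts of 922, 1281, 870 and 1314 in wild-type spleens 1 to 4 and of 97.1, 96.4, 85.8 and 111 in L2-fKO spleens 1 to 4. Every L2-fKO spleen was below every wild-type spleen, and on average 8.89% of the wild-type level was left. The log2 fold change of L2-fKO over wild type was -3.49 ± 0.19 (SE, edgeR quasi-likelihood test, Benjamini-Hochberg adjusted p = 1.03e-05).

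*Gp5* had 1894, 2968, 1252 and 2446 normalized counts in the wild-type spleens and 124, 147, 95.6 and 101.5 in the L2-fKO spleens. The groups did not overlap, and 5.47% of the level was left, at a log2 fold change of -4.19 ± 0.28 (SE, edgeR adjusted p = 2.96e-05). *Gp9* had 1596, 2645, 1501 and 2518 normalized counts in the wild-type spleens and 309, 304, 353 and 199 in the L2-fKO spleens. It kept more of its level than the other chains of the complex, 14.1%, with a log2 fold change of -2.83 ± 0.25 (SE, edgeR adjusted p = 0.000153).

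*Gp1bb* had 1911, 2771, 1175 and 2143 normalized counts in the wild-type spleens and 47.0, 47.6, 26.1 and 47.7 in the L2-fKO spleens. The groups did not overlap, L2-fKO spleen 3 was the lowest library, and the log2 fold change was -5.56 ± 0.31 (SE, edgeR adjusted p = 1.23e-05).

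The signalling receptors came next. *Gp6* (GPVI, the collagen receptor that signals through the Fc receptor γ chain) lies on chr7:4363965-4397744, minus strand. *Clec1b* (CLEC-2, the receptor for podoplanin) lies on chr6:129397297-129409335, plus strand, and shares 3.6% of its exon bases with *Clec9a*. *Treml1* (TLT-1, a receptor stored in α-granules that appears on the surface on activation) lies on chr17:48359916-48367176, plus strand.

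*Gp6* had 571, 801, 548 and 668 normalized counts in the wild-type spleens and 4.18, 5.54, 7.60 and 11.9 in the L2-fKO spleens. The L2-fKO values rest on 4, 5, 7 and 14 reads, and 1.13% of the level was left with no overlap of the groups. Its log2 fold change was -6.41 ± 0.30 (SE, edgeR adjusted p = 8.84e-06), the 7th lowest of 16911 genes tested.

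*Treml1* had 1528, 2376, 1058 and 2172 normalized counts in the wild-type spleens and 17.7, 31.0, 8.69 and 26.4 in the L2-fKO spleens. It lay next to *Gp6* in size of effect, with 1.18% of its level left and a log2 fold change of -6.39 ± 0.39 (SE, edgeR adjusted p = 1.82e-05). *Clec1b* had 1387, 2096, 978 and 1873 normalized counts in the wild-type spleens and 342, 251, 383 and 473 in the L2-fKO spleens. It changed least of the 9 genes, with 22.9% of its level left and a log2 fold change of -2.12 ± 0.26 (SE, edgeR adjusted p = 0.000953), and here too the groups did not overlap.

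The integrin chains αIIb and β3 form the fibrinogen receptor. *Itga2b* lies on chr11:102453297-102470122, minus strand, and is expressed mainly in the megakaryocyte lineage and in blood progenitors. *Itgb3* lies on chr11:104608000-104670476, plus strand, and its product also pairs with the αv chain in many other cells. *Itga2b* had 5301, 8208, 4168 and 6910 normalized counts in the wild-type spleens and 533, 436, 478 and 406 in the L2-fKO group. Its log2 fold change was -3.73 ± 0.22 (SE, edgeR adjusted p = 1.49e-05). *Itgb3* had 7351, 9660, 6605 and 8176 normalized counts in the wild-type spleens and 401, 557, 336 and 657 in the L2-fKO group. Its log2 fold change was -4.02 ± 0.23 (SE, edgeR adjusted p = 1.49e-05). For both chains the groups were far apart, and 7.54% of *Itga2b* and 6.14% of *Itgb3* were left.

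**Figure D1:**
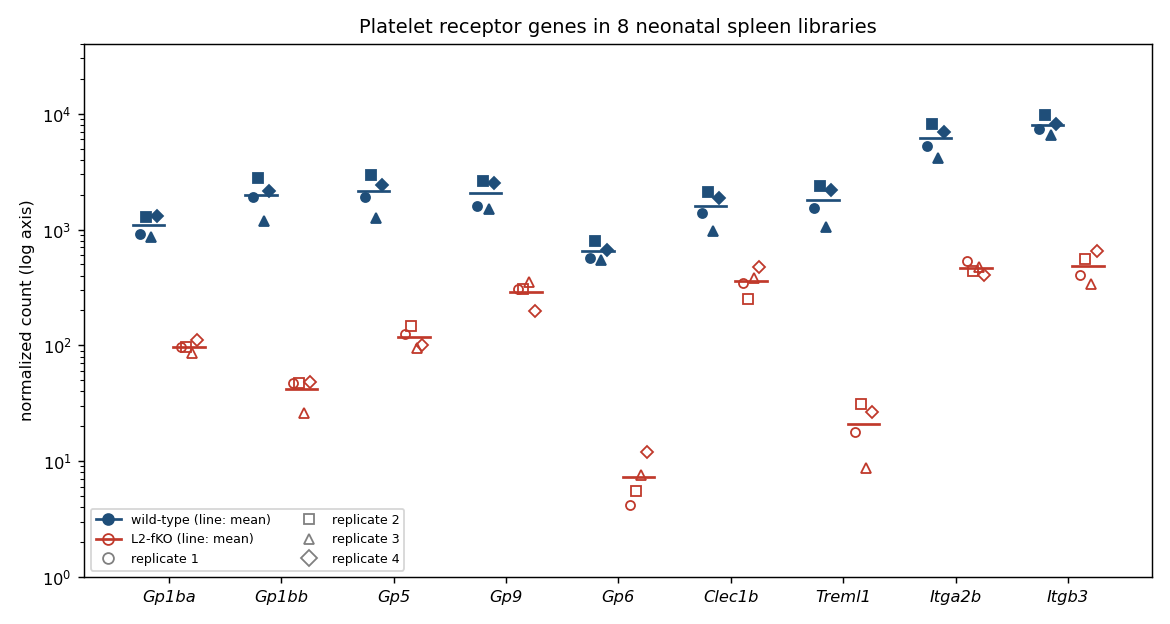
Normalized counts (log axis) of the 9 receptor genes in the 4 wild-type (filled) and 4 L2-fKO (open) spleen libraries, with the mean of each group as a line and a marker shape for each replicate. For each gene every open marker lies below every filled one, with the widest gap for *Gp6* and *Treml1* and the narrowest for *Clec1b*.

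All 9 genes fell in the L2-fKO spleen (adjusted p below 0.05 and a log2 fold change below -1), against 3.11% of the 16911 genes tested. All 9 had every L2-fKO library below every wild-type library, against 10.8% of the genes tested. The median log2 fold change of the 9 was -4.02, and that of all genes tested was -0.02. All 9 were also called without L2-fKO spleen 4, the library that stood furthest apart, where their log2 fold changes ran from -6.78 for *Gp6* to -2.28 for *Clec1b*.

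Within the wild-type group the libraries differed for these genes in one direction. The male spleens 2 and 4 lay above the female spleens 1 and 3 for all 9 genes, which holds for 20.6% of the genes tested, and the male mean was between 1.28 (*Itgb3*) and 1.76 (*Treml1*) times the female mean with 2 libraries each. Wild-type spleen 3 was the lowest of its group for all 9 genes, and wild-type spleen 2 the highest for 8 of them. The B cell markers ran from 12462 summed normalized counts in wild-type spleen 3 to 64265 in wild-type spleen 1, so the wild-type spleens also differed in lymphoid RNA. The part of sex in the wild-type spread was not tested, and all 9 genes were called with sex as a covariate and in the male libraries alone.

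The genes did not fall by the same factor. Within each library, each count was set against that of *Itga2b* as log2((count + 0.5)/(*Itga2b* count + 0.5)), which takes out whatever changed all receptors alike, and L2-fKO and wild type were compared by an exact two-sided permutation test over the 8 libraries. The smallest p this design allows is 0.0286, 8 ratios were compared, and the p-values are not adjusted for that.

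*Clec1b* rose relative to *Itga2b*, from a log2 ratio of -1.97 ± 0.09 (SD, n = 4) to -0.38 ± 0.45 (exact permutation p = 0.0286). *Gp9* rose likewise from -1.57 ± 0.13 to -0.69 ± 0.27 (SD, n = 4, exact permutation p = 0.0286). These are the receptors that kept the most of their level.

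*Treml1* fell relative to *Itga2b* from -1.81 ± 0.13 to -4.57 ± 0.89 (SD, n = 4, exact permutation p = 0.0286). *Gp6* fell from -3.22 ± 0.21 to -5.98 ± 0.74 (SD, n = 4, exact permutation p = 0.0286), and *Gp1bb* from -1.64 ± 0.15 to -3.48 ± 0.49 (SD, n = 4, exact permutation p = 0.0286). In these 5 ratios the groups did not overlap.

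The other 3 ratios overlapped between the groups. The difference was 0.22 for *Gp1ba* (exact permutation p = 0.229, n = 4 each), -0.37 for *Itgb3* (exact permutation p = 0.343, n = 4 each) and -0.45 for *Gp5* (exact permutation p = 0.0571, n = 4 each). For *Gp5* only L2-fKO spleen 2 (-1.56) lay within the wild-type range of -1.73 to -1.47. Without that library the difference was -0.59, and the permutation p is then the smallest possible through the choice of library, so it decides nothing. In the other 8 alternatives tried, the *Gp5* difference was -0.51 to -0.34.

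**Figure D2:**
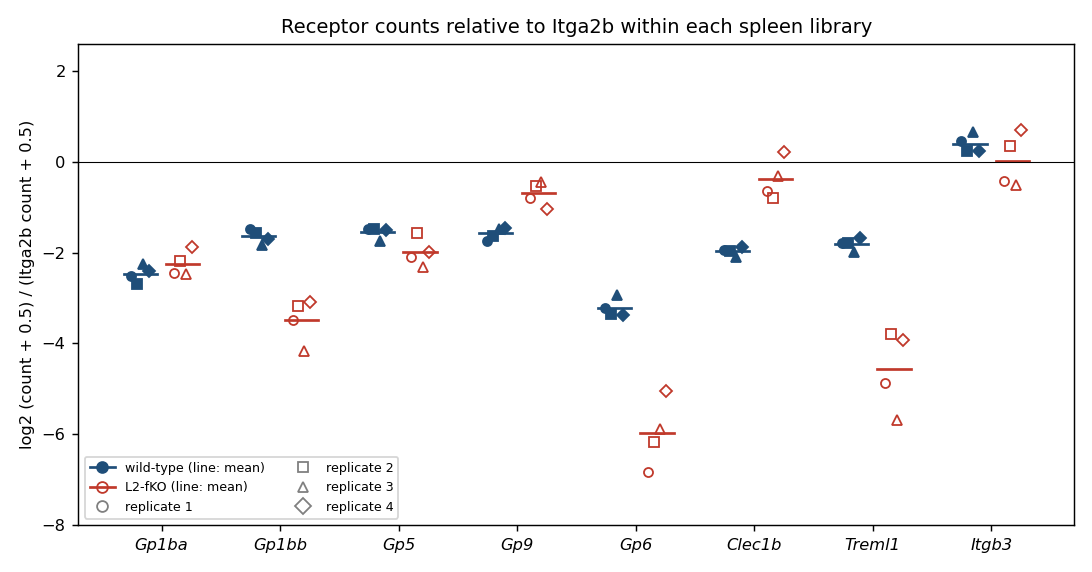
The log2 ratio of each receptor's count to that of *Itga2b* in the same spleen library, with a pseudocount of 0.5, for 4 wild-type (filled) and 4 L2-fKO (open) libraries, with the group mean as a line. Open markers lie above the filled ones for *Clec1b* and *Gp9* and below them for *Gp1bb*, *Gp6* and *Treml1*. The ranges of open and filled markers overlap for *Gp1ba*, *Gp5* and *Itgb3*.

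Levels of different genes were compared per length, as reads per kilobase of exon per 1e6 reads. The length was that of all annotated exons of a gene together, such as 881 bases for *Gp9*, 5103 for *Clec1b* and 5900 for *Gp6*. The order of the genes and the ratios between them thus depend on the annotation, while the change of a gene between genotypes does not. In the wild-type spleens *Gp9* was highest at 54.2 ± 15.8 (SD, n = 4), above every other receptor in each library. *Itgb3* (31.2 ± 5.13), *Treml1* (29.4 ± 9.97), *Itga2b* (26.1 ± 7.53), *Gp5* (22.5 ± 7.76) and *Gp1bb* (22.2 ± 7.31) followed with overlapping ranges. *Gp1ba* (9.33 ± 1.98) and *Clec1b* (7.18 ± 2.27) overlapped each other below them, and *Gp6* was lowest at 2.54 ± 0.45.

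In the L2-fKO spleens the per-length level of *Gp9* was still the highest at 7.64 ± 1.72 and that of *Gp6* the lowest at 0.029 ± 0.013 (SD, n = 4). *Treml1* had rank 3 in the wild-type order and rank 8 in the L2-fKO order at 0.346 ± 0.163, while *Clec1b* had rank 8 and then rank 4 at 1.64 ± 0.417, next to *Itgb3* (1.91 ± 0.574) and *Gp5* (1.23 ± 0.249) with overlapping ranges. Per length, *Clec1b* had 2.79 ± 0.51 times the level of *Gp6* in the wild-type spleens and 62.9 ± 21.9 times in the L2-fKO spleens. The per-length ratio of the integrin chains, *Itgb3* to *Itga2b*, was 1.23 ± 0.18 and 1.01 ± 0.41, with overlapping ranges.

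In the ovary none of the 7 receptor genes with a row was called by limma on log2(normalized count + 1), against 0.957% of the 18504 genes tested there, and none had an unadjusted p below 0.05. By edgeR and by DESeq2 on the recovered reads 0 were called as well. *Itgb3* was abundant, with 3669, 3459 and 2725 normalized counts in wild-type ovaries 1 to 3 and 3582, 1730 and 3355 in L2-fKO ovaries 1 to 3. L2-fKO ovary 2 was the lowest and the groups overlapped, and the log2 fold change was -0.24 (95% interval -0.87 to 0.38, limma adjusted p = 0.687). Without L2-fKO ovary 2 it was 0.09.

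*Itga2b* had 91.3, 90.2 and 150 normalized counts in the wild-type ovaries and 106, 122 and 129 in the L2-fKO ovaries. The groups overlapped, with a log2 fold change of 0.14 (95% interval -0.42 to 0.70, limma adjusted p = 0.808). Per length *Itgb3* stood at 29.8 ± 11.3 times *Itga2b* in the wild-type ovaries (SD, n = 3) and 22.8 ± 9.21 times in the L2-fKO ovaries, where the spleens had nearly equal levels of both chains. *Itgav*, the αv chain, had 10023 ± 505 normalized counts in the wild-type ovaries (SD, n = 3) and 1018 ± 173 in the wild-type spleens (SD, n = 4); the 2 tables were normalized separately.

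The GPIb-IX-V genes were low in the ovary. *Gp1ba* had 66.9, 51.8 and 41.3 normalized counts in the wild-type ovaries and 76.0, 82.2 and 53.5 in the L2-fKO ovaries, and the log2 fold change was 0.40 (95% interval -0.24 to 1.04, limma adjusted p = 0.508). *Gp5* had 32.9, 38.4 and 30.3 in the wild-type and 25.9, 54.5 and 23.9 in the L2-fKO ovaries. *Gp1bb* had 13.4, 18.4 and 20.2 in the wild-type and 12.5, 14.4 and 26.2 in the L2-fKO ovaries, which rest on 11 to 23 reads. All 3 overlapped between the groups. *Sept5*, with which *Gp1bb* shares most of its exon bases, had 464 ± 46.1 normalized counts in the wild-type ovaries and 442 ± 98.1 in the L2-fKO ovaries (SD, n = 3). The ovary level of *Gp1bb* and its comparison between organs are thus uncertain too.

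The signalling receptors were also low in the ovary. *Gp6* had 2.43, 9.19 and 15.6 normalized counts in the wild-type ovaries, which rest on 2, 11 and 17 reads, and 10.7, 13.4 and 12.5 in the L2-fKO ovaries. *Clec1b* had 37.7, 15.9 and 15.6 in the wild-type ovaries and 54.6, 3.08 and 26.2 in the L2-fKO ovaries. The L2-fKO ovaries held both its highest and its lowest value, and the 95% interval of its log2 fold change, -2.39 to 1.85, includes the change seen in the spleen.

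**Figure D3:**
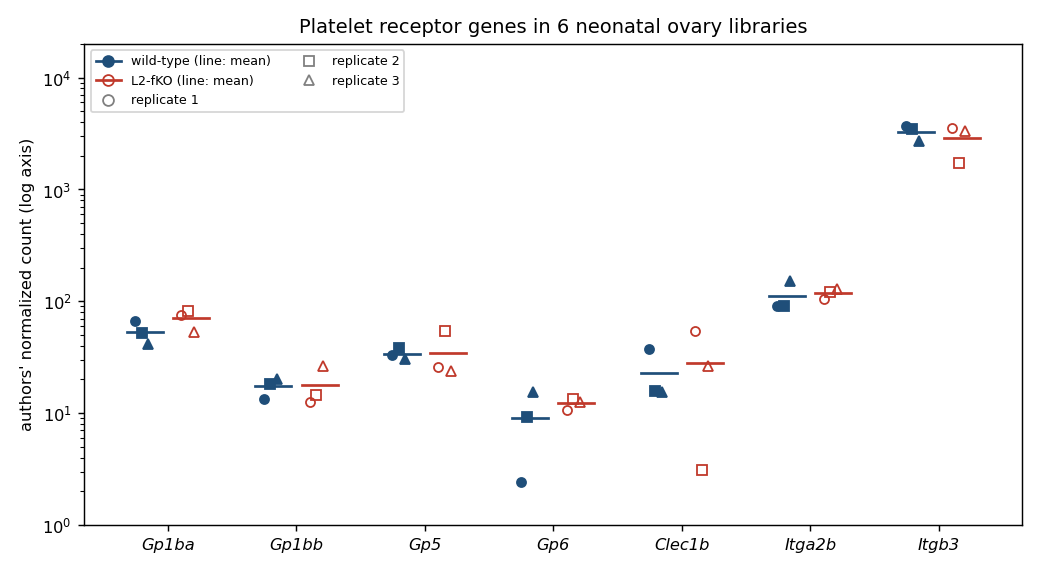
The authors' normalized counts (log axis) of the 7 receptor genes with a row in the ovary table, in 3 wild-type (filled) and 3 L2-fKO (open) ovary libraries, with the group mean as a line. *Itgb3* lies between 1730 and 3669 while the other genes lie at or below 150, and the groups overlap for every gene.

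The genotype effects in the organs were compared in 1 edgeR fit over all 14 libraries, with spleen counts and recovered ovary reads and the interaction of organ and genotype. Of the 7 genes, 6 had a lower log2 fold change in the spleen than in the ovary past the same limits, against 2% of the 18580 genes tested in this fit. The difference of log2 fold changes, spleen minus ovary, was -6.75 for *Gp6*, -5.53 for *Gp1bb*, -4.21 for *Gp5*, -3.89 for *Gp1ba*, -3.82 for *Itgb3* and -3.81 for *Itga2b*, with edgeR adjusted p from 1.32e-05 to 0.000138. For *Clec1b* the difference was -2.47 ± 0.75 (SE, edgeR adjusted p = 0.0714), which did not pass, and without the animal that gave both an L2-fKO spleen and an L2-fKO ovary it was -1.51 (edgeR adjusted p = 0.354).

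**Figure D4:**
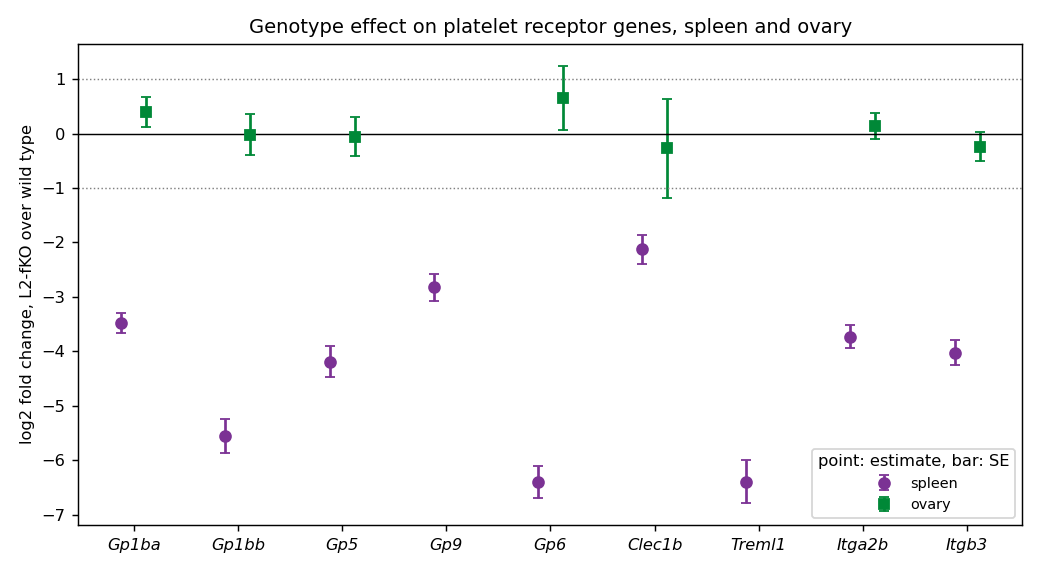
The log2 fold change of L2-fKO over wild type for each receptor gene in the spleen (circles, edgeR, 4 against 4 libraries) and in the ovary (squares, limma, 3 against 3 libraries), with the SE as bars and dotted lines at 1 and -1. Spleen values run from -6.41 to -2.12, ovary values from -0.27 to 0.66, and *Gp9* and *Treml1* have no ovary value.

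Other receptors of platelets fell in part. Of 21 other platelet receptor genes tested in the spleen, 9 fell and 1 rose (against 3.11% of genes tested that fell and 2.9% that rose), and the median log2 fold change was -0.64. *Mpig6b*, an inhibitory receptor of the megakaryocyte lineage, fell from 805 ± 250 to 15.7 ± 2.97 normalized counts (SD, n = 4). Its log2 fold change of -5.67 lay between those of *Gp1bb* and *Treml1*. *F2rl2*, the thrombin receptor PAR3, fell from 1290 ± 316 to 55.8 ± 17.8, *Selp*, the adhesion receptor P-selectin, from 214 ± 31.4 to 25.5 ± 10.7, and *Cd226*, an adhesion receptor also of lymphocytes, from 529 ± 46.0 to 91.0 ± 43.6. *Ptger3*, a prostaglandin E receptor, rose from 252 ± 38.9 to 677 ± 266 (SD, n = 4, edgeR adjusted p = 0.00838). In the ovary 0 of the 20 tested were called by limma, by edgeR or by DESeq2, and the median was 0.23. An unadjusted limma p below 0.05 was found for 7 of them, and for 3114 of all 18504 genes tested there.

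Of 15 genes for granule contents and the platelet cytoskeleton, 10 fell in the spleen, against 3.11% of the genes tested, and the median log2 fold change was -2.99. *Ppbp* and *Pf4*, chemokines stored in α-granules, fell from 15360 ± 4374 to 230 ± 86.9 and from 7156 ± 2706 to 143 ± 43.9 normalized counts (SD, n = 4). *Tubb1*, the tubulin of the platelet marginal band, fell from 1828 ± 169 to 98.2 ± 25.5, and *F5*, coagulation factor V, from 1179 ± 115 to 63.0 ± 36.0. The 5 that were not called had log2 fold changes of -0.53 (*Nbeal2*), -0.40 (*Gng11*), -0.22 (*Myh9*), -0.12 (*Bin2*) and 0.50 (*Tbxas1*). In the ovary 0 of the 13 tested were called by limma, by edgeR or by DESeq2, with a median of 0.28. An unadjusted limma p below 0.05 was found for 6 of them, and for 3114 of all 18504 genes tested there. Of this list, *Bin2* had a limma adjusted p of 0.00866 in the ovary at a log2 fold change of 0.81, inside the limit on size.

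Of 14 transcriptional regulators of the megakaryocyte lineage, 0 were called in the spleen by edgeR or by DESeq2, with a median log2 fold change of 0.14. An unadjusted edgeR p below 0.05 was found for 7 of them, and for 4910 of all 16911 genes tested. *Gata1*, shared with red cell precursors, had 11505 ± 2183 normalized counts in the wild-type and 10560 ± 3232 in the L2-fKO spleens (SD, n = 4 each). *Nfe2*, which acts late in platelet formation, had 13479 ± 2982 and 15935 ± 4969, and *Fli1*, an ETS factor, had 2360 ± 589 and 1457 ± 414. *Runx1* and *Ldb1* had an adjusted p below 0.05 at log2 fold changes of -0.41 and -0.48, inside the limit on size. These values are of the whole spleen, and which cells this RNA came from was not tested. They do not give the level of the regulators in megakaryocytes.

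Of the 26 genes that carry the receptors' signals, 3 fell and 1 rose in the spleen, with a median log2 fold change of -0.36. Of all genes tested there, 3.11% fell and 2.9% rose. *Grap2*, an adaptor of the GPVI pathway, fell from 3246 ± 431 to 1254 ± 103 normalized counts, *Lat*, the adaptor downstream of Syk, from 1420 ± 442 to 660 ± 245, and *Rasgrp2*, the exchange factor that turns on Rap1, from 5037 ± 951 to 2425 ± 950 (SD, n = 4). *Pik3cb*, a PI3-kinase catalytic subunit, rose from 1768 ± 251 to 3941 ± 1002 (SD, n = 4, edgeR adjusted p = 0.00389). *Pik3cb* was also the 1 gene of the list called in the ovary, against 0.957% of the genes tested there. It went from 611 ± 36.1 to 1527 ± 393 (SD, n = 3, limma adjusted p = 0.0164), and 0 of the list were called there without wild-type ovary 1, 2 or 3. *Fcer1g*, the γ chain that GPVI needs, had 3553 ± 781 and 2760 ± 781 normalized counts in the spleens and *Syk* had 6896 ± 3202 and 5618 ± 1872, and neither was called. Of this list, 1 gene instead of 3 fell without L2-fKO spleen 1, 2 or 3, and likewise without spleen 1, 2 or 4 of the wild type.

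Among the ligands, 7 of 11 genes were tested in the spleen, of which 2 fell and 1 rose, with a median of 0.18. Of all genes tested, 3.11% fell and 2.9% rose. *Thbs1*, thrombospondin, fell from 10691 ± 956 to 1116 ± 254 normalized counts, and *Vwf*, the ligand of GPIbα, from 2987 ± 151 to 1461 ± 435 (SD, n = 4, edgeR adjusted p = 0.00635). Both are made by megakaryocytes and by other cells, and 1 of the list instead of 2 fell without L2-fKO spleen 1, 2 or 4, with a replicate block and with sex as a covariate. *Fn1*, fibronectin, rose from 13412 ± 2054 to 28169 ± 2181 (SD, n = 4). *Pdpn*, the ligand of CLEC-2, had 79.0 ± 30.2 and 53.4 ± 21.4 normalized counts and was not called. Of 14 relatives of the receptors by family, 12 were tested and 2 fell, against 3.11% of the genes tested, with a list median of 0.11. These were *Clec12a*, from 2210 ± 378 to 831 ± 204, and *Trem2*, from 51.0 ± 8.08 to 11.8 ± 5.54 (SD, n = 4).

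Markers of other cells moved in the same spleens, where 3.11% of the genes tested fell and 2.9% rose. All 5 neutrophil marker genes fell, their sum going from 93661 to 139073 normalized counts in the wild-type spleens to 5122 to 32417 in the L2-fKO spleens, with log2 fold changes of -2.81 for *Camp*, -2.54 for *Elane*, -2.22 for *Ngp* and -2.11 for *Ltf*, and 3 of them passed without L2-fKO spleen 1. Of 5 mast cell markers, 3 rose, *Tpsb2* by 2.97, *Mcpt4* by 2.79 and *Cpa3* by 2.07 on the log2 scale. *Ms4a2* (0.87) and *Hdc* (-0.34) were not called. The sum of all 5 was 915 to 2226 normalized counts in the wild-type spleens and 2293 to 12573 in the L2-fKO spleens. Of these markers 2 passed without wild-type spleen 2 or 4, with a replicate block and with sex as a covariate, and 4 passed without L2-fKO spleen 3 and in the male libraries alone. Of the progenitor markers only *Kit*, the stem cell factor receptor, fell (1 of 4, log2 fold change -1.46). No erythroid, B cell, T cell, red pulp macrophage or endothelial marker was called in the spleen by edgeR or DESeq2. An unadjusted edgeR p below 0.05 was found for 1, 0, 0, 3 and 2 genes of 5 each, and for 4910 of all 16911 genes tested. The macrophage marker *Adgre1* and the endothelial marker *Cdh5* had an edgeR adjusted p below 0.05. Their log2 fold changes were 0.87 and 0.70, inside the limit on size. The part of these shifts in the receptor results was not tested.

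**Figure D5:**
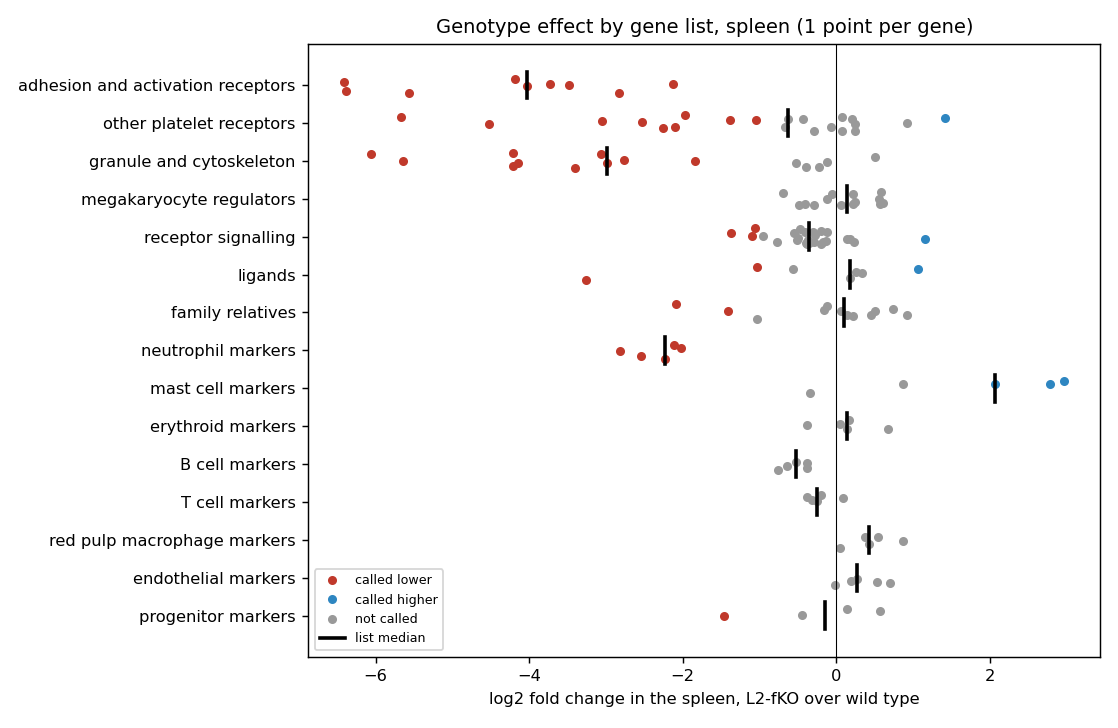
The log2 fold change of L2-fKO over wild type in the spleen for each tested gene of the named lists, 1 point a gene, coloured by its call at the limits given above, with the list median as a black bar. The receptor genes are all called lower, and no megakaryocyte regulator shown is called.

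The genes most like the receptors were ranked by Pearson's r between log2(normalized count + 1) and the mean z-score of the 9 genes over the 8 spleen libraries, among 13463 other genes with a mean normalized count of at least 50. Among the 8 highest were *Pf4* (0.9972), *Mpig6b* (0.9967), *Ccdc61* (0.9966), *Mapk3* (0.9948), *Pls1* (0.9946), *Ppbp* (0.9937) and *Gcsam* (0.9934). The 8 points share the split by genotype, and 214 genes had an r above 0.95, so the order is a description. *Ccdc61* and *Mapk3* followed the same pattern at small size, with log2 fold changes of -0.41 each, whereas *Pls1*, an actin bundling protein, fell from 466 ± 127 to 29.5 ± 9.01 normalized counts (SD, n = 4). *Pls1* did not move that way in the ovary, where its log2 fold change was 0.88 (limma adjusted p = 0.0205).

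The promoters and 3′UTRs of the receptor genes were searched for motifs, since the genes moved together and the deleted protein binds AU-rich elements. RefSeq windows of GRCm38.p6, from 250 bases before to 50 after the start, were held for 8 of the 9 genes, all but *Itgb3*. The GATA motif, bound by GATA1, was searched on both strands as AGATAA and as AGATAG, or with another first base as TGATAA and as TGATAG. It was in 5 of the 8 windows and in 30.2% of all 27025 windows, or 19.6% of the 11724 windows of genes tested in the spleen. The ETS motif, bound by factors such as FLI1 and searched on both strands as AGGAAG or as CGGAAG, was in 5 of the 8, in 46.4% of all windows and in 53.4% of those of tested genes. Both kinds were in 3 of the 8, in 12.8% of all and in 10.4% of those of tested genes. The letters of the *Treml1* window held neither. A match is a description of the letters and was not tested as a site.

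The stretches below show 1 match each for 4 genes of different roles, 5′ to 3′ on the gene's strand with the match in capitals and distances counted from the RefSeq start. That of *Gp1ba* is the reverse complement of AGATAG and lies at chr11:70639087-70639116 (plus strand), with the match 23 bases before the start, and an ETS match overlaps the stretch in lower case, 16 bases before the start. That of *Gp5* is an ETS match in reverse complement at chr16:30310812-30310841 (minus strand), 48 bases before the start. That of *Gp6* is a GATA match at chr7:4397871-4397900 (minus strand), 144 bases before the start, and that of *Itga2b* an ETS match at chr11:102469909-102469938 (minus strand), 43 bases before the start. For *Itga2b* the RefSeq start lies inside the longer gene span given above, and so does this stretch.
Gp1ba: tcctccccaactCTATCTccttcctgctct
Gp5: gaatacttccctCTTCCTctctgaagtgcc
Gp6: gctggcaagaagAGATAAgtggtggcttta
Itga2b: gctttcctggagAGGAAGgggaagcagtga

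In the longest 3′UTR that GENCODE M21 annotates, AUUUA was found in 3 of the 9 genes and in 69.3% of the 14192 spleen-tested genes with an annotated 3′UTR. There were 9 in the 4898 bases of *Gp6*, 2 in the 3331 bases of *Itgb3* and 1 in the 260 bases of *Treml1*. The other 6 genes had 3′UTRs of 164 to 466 bases, shorter than the median of 1161 bases over all these genes. The 7-base UAUUUAU is the shortest element that ZFP36L2 appeared to need in the paper's binding assays. It occurred 1 time in *Gp6* and 1 time in *Itgb3* and was in 29.7% of the genes. Both genes fell in the spleen, and the sites are shown with the 7 bases in capitals, at chr7:4367911-4367939 (minus strand) for *Gp6* and chr11:104668683-104668711 (plus strand) for *Itgb3* in GRCm38.
Gp6: aauuuuagguuUAUUUAUuugcuguauau
Itgb3: uugcauuauuaUAUUUAUaauuuuguaug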

How the data were processed

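Per the submitters' processing notes and the paper's methods, the authors used Trimmomatic 0.36 for trimming, STAR 2.5.2b for mapping to GRCm38 and featureCounts of Subread 1.5.2 for strand-specific exon counting of uniquely mapped reads. The spleen values deposited are whole-number counts per gene. The ovary values were taken from per-library columns of the authors' comparison table, a signal of counts divided by 1 size factor per library, and the mapping steps are stated for the spleen. Dividing the ovary values by the value of 1 read in each library recovered the reads: 100% of values were whole within 0.001 read. Gene symbols are those deposited with the comparison tables, or else from the reference by gene ID. The fold changes and p-values in these tables and a table of normalized spleen counts were not used. No per-sample column was without a sample (0).

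With R 4.3.3, spleen counts were tested with edgeR 4.0.16 (TMM, quasi-likelihood) on genes that reached 10 counts in 4 or more libraries. Ovary values were tested with limma 3.58.1 (trend) on log2(value + 1), with at least 10 in at least 3 libraries, a scale that understates changes of low genes. edgeR on recovered reads called 136 genes higher and 46 lower in the ovary. The interaction of organ and genotype used edgeR on genes with at least 10 reads in at least 3 of the 14 libraries. A call needed an adjusted p (Benjamini-Hochberg) below 0.05 together with a log2 fold change above 1 or below -1. Normalized spleen counts are counts over TMM-scaled library size. Per-length levels used the length of all GENCODE M21 exons of a gene together. Ratios, motifs and plots used Python 3.11.15, numpy 2.4.6, pandas 2.3.3 and matplotlib 3.10.9, and DESeq2 1.42.0 was an alternative. The fits were tested on simulated data.

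The 9 genes and the gene lists were chosen with earlier results of these data known. Of each other list, called genes were named, at most the 4 with the largest log2 fold change in each direction, and *Gata1*, *Nfe2*, *Fli1*, *Runx1*, *Ldb1*, *Fcer1g*, *Syk*, *Pdpn*, *Nbeal2*, *Gng11*, *Myh9*, *Bin2* and *Tbxas1* after their values were seen. *Sept5*, *Itgav*, *Adgre1* and *Cdh5* were also named after their values were seen. Of the wild-type spleens, 2 are numbered 3 in the labels, and the male one is replicate 4 here. Each library was 1 animal, and same-numbered libraries were not treated as pairs. Protein sequences were not analysed here, and 1 gene of the lists is not reported here.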

Additional observations from a re-analysis of the deposited data

Results flagged for a closer look

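*Gp1bb* in L2-fKO spleen 3 stood apart from the other 3 libraries of its group, at 26.1 normalized counts against 47.0 to 47.8, by Dixon's test for 4 samples. Chance gives such a gap in about 5% of groups.

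In 6 genes the genotype effect differed between spleen and ovary by the interaction test. The difference of log2 fold changes (spleen minus ovary) was -3.89 for *Gp1ba*, -5.53 for *Gp1bb*, -4.21 for *Gp5*, -6.75 for *Gp6*, -3.81 for *Itga2b* and -3.82 for *Itgb3*. *Itgb3* is the one of these with a high level in the ovary, so its difference does not rest on low counts there. Per length, *Itgb3* stood at 29.8 ± 11.3 times *Itga2b* in the wild-type ovaries (SD, n = 3). In the wild-type spleens it stood at 1.23 ± 0.18 times *Itga2b* (SD, n = 4). Which cells the *Itgb3* RNA of each organ came from was not tested.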

How the results depend on the processing

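All 9 genes were called lower in the spleen under every alternative tried (DESeq2, DESeq2 size factors, no filter, each library left out, replicate block, sex as a covariate, males only, adjusted p alone), except that with at least 10 counts in all 8 libraries *Gp6* and *Treml1* were not tested and 7 of 7 were called. Without the limit on fold change 1166 genes were higher and 1101 lower in the spleen. In the ovary 0 of the 7 genes were called under any alternative, while the calls over all genes moved: DESeq2 on recovered reads gave 286 higher and 121 lower, adjusted p alone 227 and 65, and leaving out 1 library 28 to 126 higher and 4 to 72 lower. The cause was not tested.

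Some ovary log2 fold changes near 0 turned positive. That of *Clec1b* was 0.32 by edgeR and 0.29 by DESeq2 on recovered reads and -1.07 to 0.81 with 1 library left out, that of *Gp5* 0.031 by edgeR, 0.037 by DESeq2 and -0.42 to 0.16 with 1 left out, that of *Gp1bb* 0.011 by DESeq2 and -0.33 to 0.18 with 1 left out, and that of *Itgb3* -0.44 to 0.089 with 1 left out.

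The paper describes the spleens as age-matched pairs, and whether the shared numbers in the labels mark these pairs was not settled. Same-numbered libraries deviated from their group means with r of -0.14 to 0.18 in the spleen and 0.07 to 0.38 in the ovary. Not every library correlated best with its own number, but each L2-fKO ovary did. A replicate block gave 498 genes higher and 693 lower in the spleen (490 and 526 without it). In the ovary it gave 187 higher and 81 lower (135 and 42 without it). With the block 9 of the receptor genes were called in the spleen and 0 in the ovary. No wild-type spleen shares the number of L2-fKO spleen 4, so that library adds nothing to the genotype estimate of the blocked spleen fit.

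Low read numbers (*Gp6*, *Treml1* in L2-fKO spleens, *Gp6*, *Gp1bb* and *Clec1b* in ovaries) limit these values. The comparison of protein features was not run.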
